A study of Xenopus laevis with 16 samples.

Results

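The genes described here encode the vacuolar proton pump (V-ATPase) and the carriers and carbonic anhydrases that work beside it in ionocytes, the ion-transporting cells of the larval skin. They were taken by name, as every listed gene whose symbol begins with atp6v0, atp6v1, atp6ap1 or atp6ap2, together with ca12, ca2, slc4a1, slc4a4 and slc4a9. That gave 44 gene copies of 26 symbols among 45038 listed genes. Of these, 14 encode the membrane sector V0, 15 the catalytic sector V1, 7 accessory proteins of the pump, and 8 carriers or carbonic anhydrases. Xenopus laevis is an allotetraploid frog that keeps a long (L) and a short (S) copy, called homeologs, of many genes, and 18 of the 26 symbols had both. All 44 copies passed the filter on low counts, which 30384 of the 45038 genes passed. No row carries the name slc26a4, atp6v1a, atp6v1b2, atp6v1f or atp6v1g1, and those genes were not analysed here.

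RNA was sequenced from animal caps, explants of blastula ectoderm of Xenopus laevis. Embryos had received 20 pg of mRNA for 1 of 3 bHLH transcription factor constructs before the caps were cut. The constructs were ptf1a-GR, GR-neurog2 and ptf1aW224A/W242A-GR, the last called the mutant here because it carries the W224A and W242A changes. GR is a hormone-binding domain that makes a fused protein depend on dexamethasone. Every group, controls included, was cultured in dexamethasone for 6 h or 25 h. The labels list no injected mRNA for the control caps (CC), while the design text can be read as calling them injected, so what the controls received is not plain. Each of the 8 groups has 2 libraries, and the number of explants in a library is not given in the labels. Nothing says that replicates came from separate batches of embryos, so p-values measure only the spread between these samples, which may be technical.

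The vacuolar pump is a rotary motor. V1 hydrolyses ATP in the cytoplasm, and V0 carries protons through the membrane. Most cells use it to acidify lysosomes and endosomes, and several subunits exist as widely used and as specialised isoforms. In acid-secreting cells of the mammalian kidney the pump at the cell surface is built with the isoforms a4, B1, C2, d2 and G3. Ionocytes of frog skin also secrete protons. Carbonic anhydrases supply the protons and bicarbonate, and Slc4 carriers move bicarbonate across the membrane.

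Total counts per library ran from 31436437 to 228346016, and the 44 copies took 0.142% to 0.444% of them. The injected genes followed the labels. At 6 h, ptf1a.L was at 184 and 181 CPM (a count scaled to library size) in Ptf1a caps and 152 and 146 CPM in mutant caps, against 0.161 and 0.187 CPM in controls. Gene neurog2.L was at 158 and 192 CPM in Neurog2 caps at 6 h and at 0.257 and 0.373 CPM in controls. All CPM values are scaled by TMM, and values of a group are given for replicate 1 and then replicate 2. A gene is called where edgeR's quasi-likelihood test gives an adjusted p under 0.05, with adjustment over all 30384 genes tested.

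In control caps the specialised isoforms of the pump appeared between 6 h and 25 h. The 8 copies of isoforms known from acid-secreting cells all rose, with a median log2 fold change of 7.92. Carbonic anhydrase 2 and the Slc4 carriers slc4a1 and slc4a9 rose as well. Of the 4 copies of isoforms known from neurons, 2 rose, 1 fell and 1 was not called, with a median of 2.01. Among them, atp6v0a1.L rose by 4.01 and had the smallest p of all pump genes (edgeR adjusted p = 2.62e-08). The 24 other pump copies had a smaller median of 0.91, though some rose steeply, such as atp6v1d.L by 3.59 and atp6ap1.1.S by 8.39. Of the 44 copies, 30 rose, 2 fell and 12 were not called, with a median of 1.98. Over all genes tested, 28.9% were called higher and 30.4% lower, with a median of -0.14.

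The V1 subunit B1, part of the catalytic head, had the largest log2 rise among pump genes. Its gene atp6v1b1.L (build 9.1, chromosome 1L, bases 5359853 to 5393848, minus strand) stood at 0.579 and 0.42 CPM in controls at 6 h, from 36 and 18 counts. At 25 h it stood at 554 and 457 CPM. The groups lie far apart, and the log2 fold change was 9.96 ± 0.56 (SE, n = 2 per group, edgeR adjusted p = 4.38e-08). The V0 subunit a4, an isoform of the proton-conducting arm known from the kidney, is encoded by atp6v0a4.L on Scaffold31, bases 1943111 to 1957368. It went from 0.241 and 0.257 CPM to 186 and 152 CPM, a log2 change of 9.40 ± 0.70 (edgeR adjusted p = 3.21e-07). The stalk subunit G3, from atp6v1g3.L, went from 0.353 and 0.0933 CPM to 141 and 120 CPM, a log2 change of 9.09 ± 0.72. Its S copy stood at 72 and 52.9 CPM at 25 h and rose by 8.26 on the log2 scale.

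The remaining isoforms of this kind followed. Subunit C2 rose from 1.54 and 1.21 CPM to 285 and 246 CPM in its L copy. Its S copy reached only 8.94 and 7.81 CPM. Subunit d2, at the base of the rotor, rose from 0.739 and 0.56 CPM to 112 and 84.7 CPM in its L copy, while its S copy reached 1.2 and 2.63 CPM. The rise of atp6v0d2.S, 2.95 on the log2 scale, was not called once control replicate 1 or 2 of 6 h, or replicate 2 of 25 h, was left out.

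Carbonic anhydrase 2, the cytoplasmic enzyme that makes bicarbonate and protons from carbon dioxide, had the steepest rise of the set. Gene ca2.L (chromosome 6L, bases 125787345 to 125811358) went from 0.225 and 0.233 CPM to 368 and 300 CPM, and ca2.S (chromosome 6S, bases 102475902 to 102500159) from 0.289 and 0.0933 CPM to 308 and 202 CPM. Their log2 changes were 10.5 ± 0.63 and 10.28 ± 0.76 (edgeR adjusted p = 6.93e-08 and 3.15e-07). Counts at 6 h were 14 and 10 for the L copy and 18 and 4 for the S copy, so the size of these folds is set by few reads.

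Membrane-bound carbonic anhydrase 12 was already present at 6 h. Gene ca12.L went from 25.4 and 17.4 CPM to 78.1 and 69.2 CPM, a log2 change of 1.78 ± 0.40. The anion exchanger slc4a1 (AE1), which passes bicarbonate out of the cell, rose in both copies, from 13.4 and 10.9 CPM to 103 and 99.2 CPM for L, and from 1.54 and 0.886 CPM to 276 and 196 CPM for S. Carrier gene slc4a9.L (AE4) rose from 0.289 and 0.303 CPM to 23.3 and 25.4 CPM. The sodium bicarbonate cotransporter slc4a4 did not follow. Both of its copies were at or below 1.77 CPM at 6 h and at or below 0.557 CPM at 25 h, and neither was called. With replicate number as a block, slc4a4.S was called lower (-1.17, edgeR adjusted p = 0.0484).

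Of the 24 other pump copies, 14 rose, 1 fell and 9 were not called, with a median of 0.91. Rotor ring subunit c was the most abundant of the set per length at 25 h. Its copies atp6v0c.L and atp6v0c.S averaged 263 and 320 CPM per kilobase of gene model in 25 h controls, against 166 and 167 at 6 h. They rose by 0.67 ± 0.23 and 0.93 ± 0.22 on the log2 scale. The L copy was not called once control replicate 2 of 6 h or either control replicate of 25 h was left out. Subunit B1 stood at 288 CPM per kilobase at 25 h, between the copies of c. Genes of the accessory subunit Ac45 moved differently from one another. Copies atp6ap1.1.L and atp6ap1.1.S rose from 0.643 and 0.606 CPM to 100 and 77 CPM, and from 0.321 and 0.327 CPM to 117 and 102 CPM. Copy atp6ap1.2.S fell by 1.18 ± 0.17, from 84.9 and 68.8 CPM to 33.9 and 33.9 CPM. Copy atp6ap1.2.L was not called, at 41.6 and 17 CPM and then 48 and 54.4 CPM. Leaving out single control libraries took away 5 of the 32 calls (atp6v1e1.S, atp6v0d2.S, atp6v1g2.L, atp6v1d.S and atp6v0c.L). With a block within each time the rise of atp6v1g2.L was not called, and atp6v1c1.S was called lower (-0.48, edgeR adjusted p = 0.0179).

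Genes listed as ionocyte factors moved both ways over the same interval. The transcription factor foxi1, which specifies ionocytes, went from 3.41 and 1.73 CPM to 80.3 and 61.1 CPM in its L copy. Other Foxi genes of the list went down. Gene foxi4.2.S went from 242.5 and 117.3 CPM to 4.17 and 3.35 CPM, and foxi2.L from 56.9 and 76.7 CPM to 2.22 and 1.91 CPM. The ammonia channel genes rhcg.L and rhcg.S, also known from ionocytes, were at or below 2.8 CPM in every library. In the list of ionocyte factors and other transport genes, 17 of 37 copies tested rose and 13 fell. Among lysosomal genes 16 of 45 rose and 13 fell, and among genes of multiciliated cells 19 of 24 rose and 3 fell. For comparison, 28.9% of all genes tested were called higher and 30.4% lower. In bulk RNA a change in the number of cells of a type and a change in RNA per cell cannot be told apart.

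**Figure D1:**
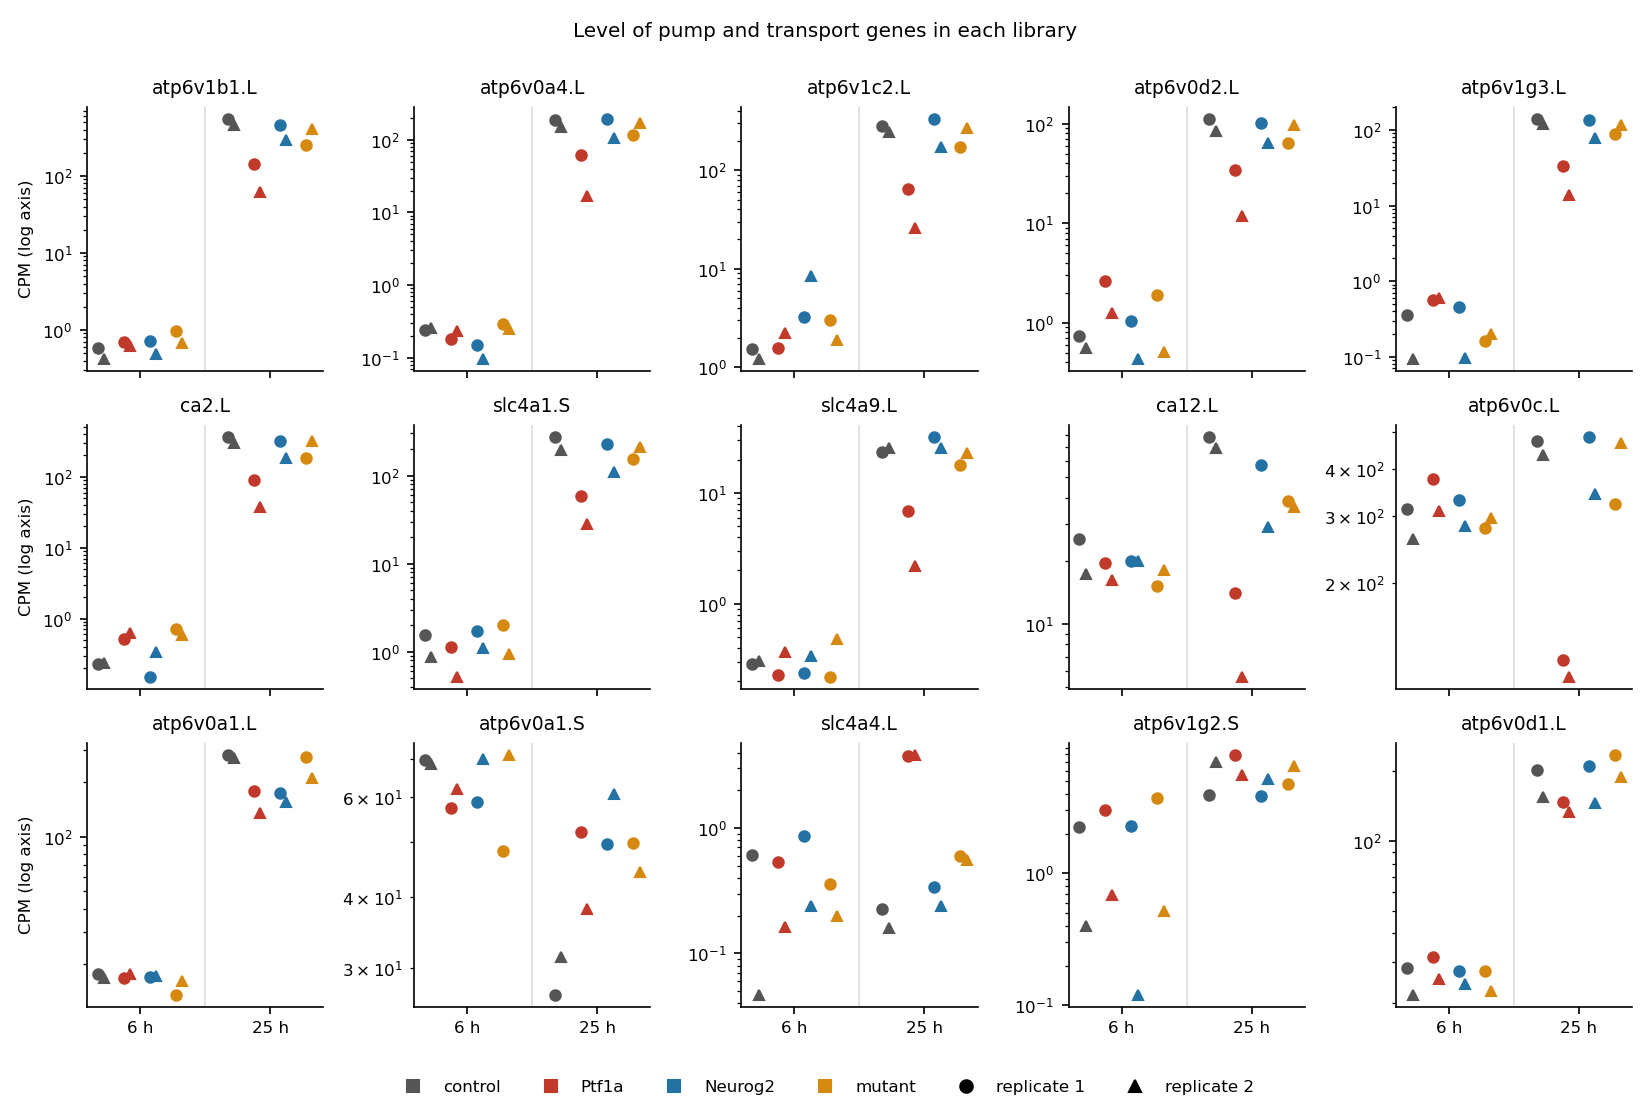
Level of 15 genes of the pump and transport set in CPM (log axis) in each library, by group and time; circles are replicate 1 and triangles replicate 2. Gene atp6v1b1.L sits at 554 and 457 CPM in control caps at 25 h and at 144 and 61.5 CPM in Ptf1a caps, and is below 1 CPM in every group at 6 h.

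Much of the set was lower in Ptf1a caps than in control caps at 25 h. Of the 44 copies, 27 fell and 1 rose, while 16 were not called. Over all genes, 8.62% were called lower and 11.9% higher. The median log2 fold change was -1.31 for the set and 0.08 for all genes tested. By class, 6 of 8 isoform copies of acid-secreting cells fell with a median of -2.29, 6 of 8 carriers and carbonic anhydrases fell and 1 rose, and 14 of 24 other pump copies fell with a median of -1.08. By sector, 9 of 14 V0 copies, 8 of 15 V1 copies and 4 of 7 accessory copies fell.

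Among isoforms of acid-secreting cells, atp6v1b1.L stood at 144 and 61.5 CPM in Ptf1a caps and at 554 and 457 CPM in controls. The gene was 4.93-fold lower (log2 change -2.30 ± 0.39, edgeR adjusted p = 0.00165). Gene atp6v1g3.S had the lowest log2 change of the pump copies, -2.69 ± 0.54 (edgeR adjusted p = 0.00434), at 13.9 and 5.39 CPM against 72 and 52.9 CPM. Its L copy stood at 33.3 and 13.8 CPM against 141 and 120 CPM, a log2 change of -2.47. In each case replicate 2 of Ptf1a was the lower one.

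The L copies of the remaining isoforms were also lowest in replicate 2 of Ptf1a. Gene atp6v1c2.L stood at 64.3 and 26.1 CPM against 285 and 246 CPM (log2 change -2.55 ± 0.52). Gene atp6v0a4.L stood at 62.4 and 16.7 CPM against 186 and 152 CPM (-2.09 ± 0.48, edgeR adjusted p = 0.00895), and atp6v0d2.L at 33.9 and 11.8 CPM against 112 and 84.7 CPM (-2.11 ± 0.62, edgeR adjusted p = 0.0323). The weakly expressed copies atp6v0d2.S and atp6v1c2.S were not called. The former stood at 0.415 and 0.548 CPM against 1.2 and 2.63 CPM, and the latter at 2.83 and 0.647 CPM against 8.94 and 7.81 CPM. With replicate number as a block, atp6v1c2.S was called lower too (-2.47, edgeR adjusted p = 0.0267). Both were called lower with a block within each time, where atp6v0d2.S had a log2 change of -1.88 (edgeR adjusted p = 0.0347).

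Of the transport genes, ca12.L had the lowest log2 change of the whole set, -2.91 ± 0.41 (edgeR adjusted p = 0.000655). It stood at 14.1 and 5.6 CPM in Ptf1a caps and at 78.1 and 69.2 CPM in controls, a 7.5-fold difference. Gene ca2.L stood at 89.1 and 37.3 CPM against 368 and 300 CPM, and ca2.S at 86.6 and 27.3 CPM against 308 and 202 CPM. Their log2 changes were -2.40 ± 0.42 and -2.16 ± 0.50. Anion exchanger copy slc4a1.S stood at 59.2 and 28.4 CPM against 276 and 196 CPM (-2.43 ± 0.52), and slc4a1.L at 53.9 and 23.8 CPM against 103 and 99.2 CPM (-1.38 ± 0.37). Gene slc4a9.L stood at 6.91 and 2.2 CPM against 23.3 and 25.4 CPM (-2.42 ± 0.49, edgeR adjusted p = 0.00452). All 6 of these copies were called lower, where 8.62% of all genes were. Over the whole set, 72.7% of copies had an unadjusted edgeR p under 0.05, against 32.7% of all genes. An exact permutation test of 2 libraries against 2 cannot go below p = 0.333.

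The cotransporter slc4a4 again went its own way. Gene slc4a4.L (chromosome 1L, bases 75644349 to 75787529) stood at 3.75 and 3.85 CPM in Ptf1a caps and at 0.226 and 0.159 CPM in controls. It was the only copy of the set called higher, by 4.26 ± 1.03 on the log2 scale (edgeR adjusted p = 0.012), and 7 of 44 copies lay above 0. Its control values rest on 12 and 4 counts. The call was lost when either control library was left out. Its S copy stood at 0.614 and 0.702 CPM against 0.413 and 0.557 CPM and was not called. In mammals slc4a4 is best known for carrying sodium and bicarbonate together in kidney, pancreas and glia.

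The general subunits followed with smaller median changes. Rotor subunit gene atp6v0c.L (chromosome 9_10L, bases 104750214 to 104761554) had the smallest p of the set, at 125 and 113 CPM against 474 and 436 CPM (log2 change -1.93 ± 0.23, edgeR adjusted p = 0.00029). Its S copy stood at 165 and 217 CPM against 494 and 434 CPM (-1.28 ± 0.23). Stalk gene atp6v1e1.L stood at 130 and 106 CPM against 370 and 343 CPM (-1.59 ± 0.25). Both copies of the small V0 proteins atp6v0b and atp6v0e1 fell by 0.99 to 1.60 on the log2 scale. Accessory copies atp6ap1.1.L and atp6ap1.1.S fell by 2.502 ± 0.40 and 2.29 ± 0.57, standing at 22.1 and 9.26 CPM and at 28.2 and 16.6 CPM. The 10 other pump copies outside the specialised classes that were not called include both copies of atp6ap1.2 and atp6v1d, and atp6v0a2.L, which stood at 38.8 and 25.5 CPM against 35 and 36.8 CPM.

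The 4 copies of isoforms known from neurons behaved differently from one another. The class name does not mark neurons in these caps. In controls atp6v0a1.L stood at 282 and 270 CPM, where the summed level of the neuronal list was 37.7 and 53.7 CPM. Subunit a1, found on synaptic vesicles in mammals, fell in its L copy, at 179 and 136 CPM against 282 and 270 CPM (log2 change -0.81 ± 0.19, edgeR adjusted p = 0.00902). Its S copy stood at 52 and 38 CPM against 26.9 and 31.3 CPM and was not called (0.63 ± 0.22, edgeR adjusted p = 0.0644). With replicate number as a block it was called higher (0.64, edgeR adjusted p = 0.0414). The neuronal stalk isoform G2 stood at 4.41 and 3.36 CPM in its L copy against 1.65 and 1.39 CPM, and at 7.94 and 5.55 CPM in its S copy against 3.96 and 7.01 CPM. Neither copy of atp6v1g2 was called, and the libraries of the S copy overlap.

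Of the 28 calls, 16 also held without each of the 4 libraries in turn. These were atp6v1b1.L, atp6v1c2.L, atp6v1g3.L, atp6v1g3.S, ca12.L, ca2.L, slc4a9.L, atp6v0b.L, atp6v0b.S, atp6v0c.L, atp6v0c.S, atp6v0e1.L, atp6v0e1.S, atp6v1e1.L, atp6ap1.1.L and atp6ap2.L. The count of lower copies was 17 without Ptf1a replicate 2 and 17 without control replicate 1. The calls of atp6v0d2.L, slc4a1.L, ca2.S, atp6ap1.1.S, atp6ap2.S, atp6v0a1.L, atp6v1c1.L, atp6v1h.L and atp6v1h.S were lost when either of these was left out, that of slc4a1.S without Ptf1a replicate 2, and that of atp6v0a4.L without control replicate 1. The replicate block added lower calls for atp6v1e1.S, atp6v1c2.S, atp6v1d.L and atp6v1d.S, and the block within each time also called atp6v0e2.S higher (2.21, edgeR adjusted p = 0.00523).

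**Figure D2:**
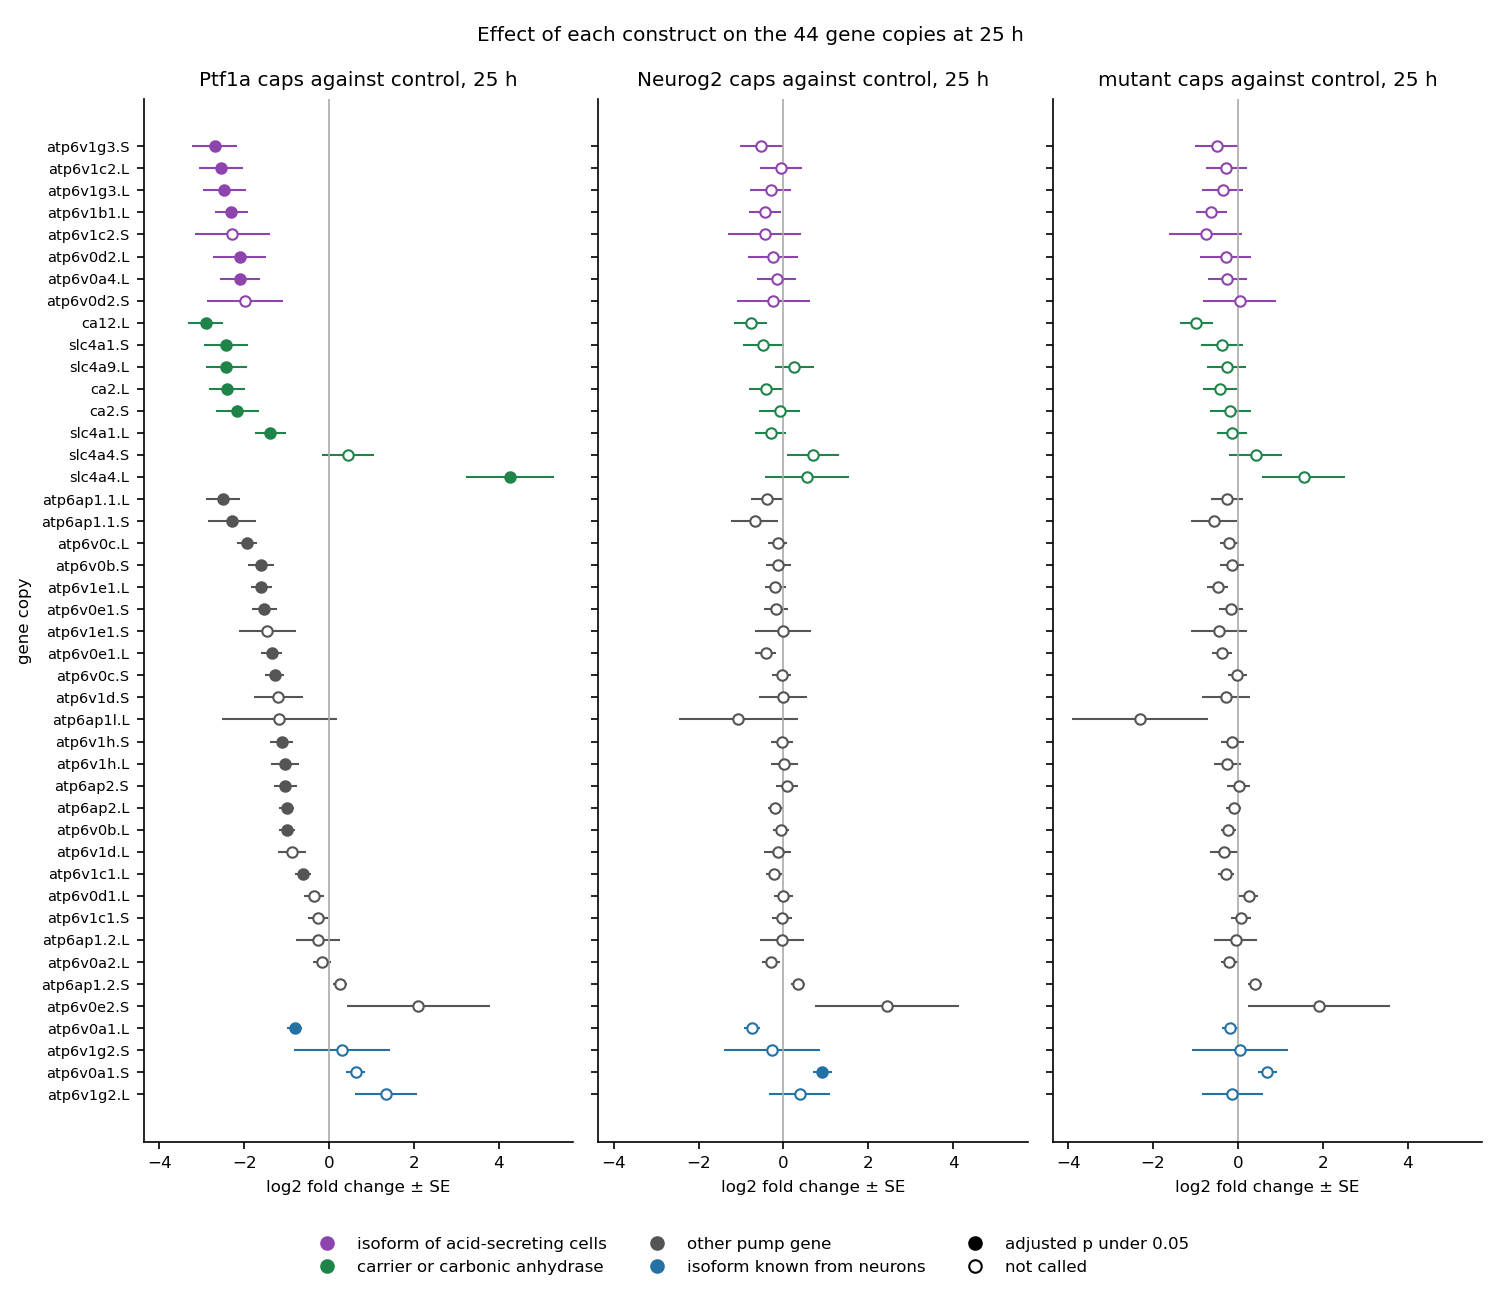
Log2 fold change with SE for each of the 44 copies against control caps at 25 h (x axis) for Ptf1a, the mutant and Neurog2; filled points are called. The Ptf1a points reach down to -2.91 for ca12.L, and 27 are called lower, while no mutant point is called and 1 Neurog2 point, atp6v0a1.S, is called.

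Genes from the list of ionocyte factors and other transport genes moved in both directions with Ptf1a. Of 37 copies tested, 5 rose and 8 fell, with a median log2 change of 0.10. For comparison, 11.9% of all genes were called higher and 8.62% lower. The 2 lowest called were foxi1.S, at 12.5 and 5.64 CPM against 67.7 and 45.3 CPM (log2 change -2.64), and dmrt2.L, a DM-domain factor gene, at 16.3 and 6.24 CPM against 73.6 and 58.6 CPM (-2.56). The L copy of foxi1 fell too, to 20.1 and 6.29 CPM. The anion exchanger gene slc26a6.L fell by 2.05 on the log2 scale. The 2 highest called were foxi2.S, at 13.1 and 15.9 CPM against 0.113 and 0.478 CPM, and foxi4.1.L, at 28.6 and 26.3 CPM against 0.338 and 1.99 CPM. These encode forkhead factors of early ectoderm. Among lysosomal genes, where the general pump subunits also work, 2 of 45 copies rose and 6 fell, with a median of -0.23.

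Genes of other cell types of the skin moved in the same comparison. In the multiciliated cell list 17 of 24 copies fell and none rose, with a median of -2.31, and its summed level was 424 and 395 CPM in Ptf1a caps and 1763 and 1941 CPM in controls. In the goblet cell list 2 of 9 fell, and in the small secretory cell list none of 4 was called. The shares of all genes in this comparison were 11.9% higher and 8.62% lower. In the list of neuronal genes 23 of 29 copies rose, and their summed level was 1060 and 1015 CPM against 37.7 and 53.7 CPM. Whether these shifts have a part in the lower pump transcripts was not tested.

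Within a subunit, the specialised isoform made up a smaller part of the analysed transcripts in Ptf1a caps. Shares are of the copies taken by name, so genes of a subunit listed under other names are not counted. Per length of gene model, a4 was 39.7% and 35.1% of the summed transcripts of atp6v0a1, atp6v0a2 and atp6v0a4 in controls at 25 h. With Ptf1a it was 21% and 8.87%. For d2 the shares were 64.4% and 64.9% in controls and 42.9% and 23.6% with Ptf1a. As shares of reads, without scaling for length, those of d2 were 35.9% and 36%, against 18.9% and 8.48%. Per length, C2 stood at 48.6% and 44.1% in controls against 24.4% and 10.8% with Ptf1a. Copies of atp6ap1.1 are classed here with the other pump copies, not as a specialised isoform, so they are no further case of the same kind. They made up 72.8% and 67.8% of analysed Ac45 transcripts against 37.6% and 24.8% with Ptf1a. The groups do not overlap for a4, d2, C2 or atp6ap1.1, but how often other isoform shares separate in this way was not counted. Only atp6v1g2 and atp6v1g3 were analysed for subunit G, so the share of G3 in all G transcripts is not known. Per length, G3 was 99.3% and 98.8% of their summed transcripts in controls and 93.3% and 88.6% with Ptf1a, again with no overlap. As shares of reads, G3 stood at 97.4% and 95.4% against 79.3% and 68.3%. An exact permutation test of 2 libraries against 2 cannot go below p = 0.333, so no test was made. The gene models differ in how much untranslated sequence they hold, which enters these shares but is the same in every library.

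In 25 h caps with the other constructs the shares of a4, d2 and C2 lay above both Ptf1a libraries. Share of a4 was 47% and 33.7% in Neurog2 caps and 28.2% and 40.8% in mutant caps. Share of d2 was 61.1% and 60% in Neurog2 caps and 46.5% and 63.9% in mutant caps, all below the 64.4% of the lower control library. Share of C2 was 55% and 39.3% in Neurog2 caps and 43.1% and 46.7% in mutant caps, against 48.6% and 44.1% in controls. Share of atp6ap1.1 was 66.1% and 49.3%, and 58.3% and 62.5%, again below both controls and above both Ptf1a libraries. At 6 h, a4 was at most 0.291% in any library.

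**Figure D3:**
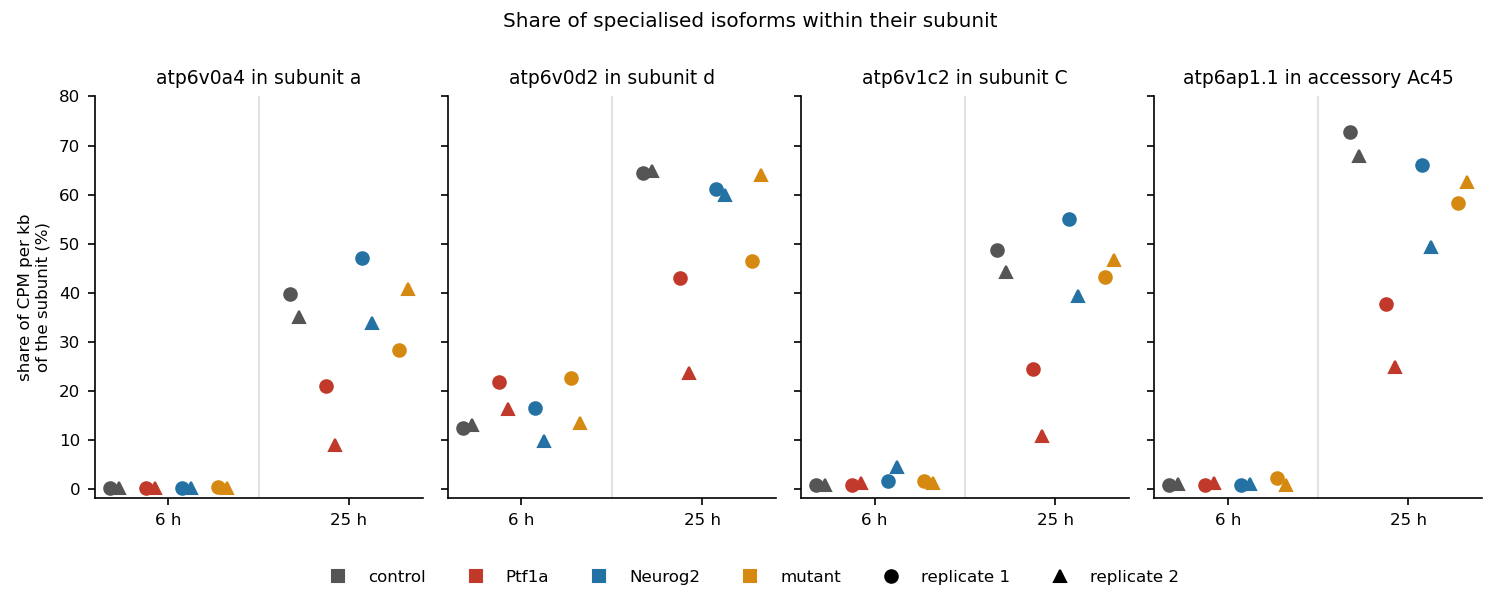
Share of a4, d2, C2 and atp6ap1.1 in the analysed transcripts of their subunit (percent of CPM per kilobase) in each library. Gene atp6ap1.1 is classed with the other pump copies. At 25 h both Ptf1a libraries lie below all 6 other libraries of that time, for example at 24.4% and 10.8% for C2.

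Neurog2 and the Ptf1a mutant gave almost no calls in the set at 25 h. With Neurog2, 1 of 44 copies was called higher and 0 lower, against 2.98% and 0.105% of all genes. The median log2 change was -0.15, against -0.02 for all genes. Below 0 lay 35 of the 44 copies and 15872 of the 30384 genes tested. At an unadjusted p under 0.05 there were 2 of 44 copies, or 4.55%, against 12.1% of all genes. DESeq2 called 2 copies, and 1501 of all genes higher and 335 lower. With the mutant, 0 of 44 were called in either direction by edgeR, against 0.803% of all genes called higher and 0.0329% lower. The median was -0.21, against 0.009 for all genes. Here 34 of the 44 copies and 14400 of the 30384 genes lay below 0. Without adjustment, the mutant had a p under 0.05 in 3 of 44 copies, or 6.82%, against 9.05% of all genes. DESeq2 called 0 copies with the mutant, and 758 of all genes higher and 210 lower. All 3 constructs were compared with the same control libraries.

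Values side by side show the size of these differences. Gene atp6v1b1.L stood at 457 and 292 CPM with Neurog2 and at 253 and 401 CPM with the mutant. Both libraries of each lay below both controls, which stood at 554 and 457 CPM. Neurog2 replicate 1 was only just below, at 456.6 against 457.1 CPM. The log2 changes of atp6v1b1.L were -0.43 ± 0.37 and -0.63 ± 0.37. Gene atp6v0a4.L stood at 195 and 108 CPM, and at 116 and 168 CPM, overlapping the controls. For ca12.L the values were 57.4 and 29.1 CPM, and 38.6 and 36.1 CPM, all below the controls' 78.1 and 69.2 CPM. Its log2 changes were -0.77 ± 0.39 with Neurog2 and -0.98 ± 0.39 with the mutant (edgeR adjusted p = 0.484 and 0.419). Gene atp6v1c2.L stood at 334 and 174 CPM, and at 173 and 266 CPM, against 285 and 246 CPM, and atp6v1g3.L at 135 and 77.5 CPM, and at 87.4 and 117 CPM, against 141 and 120 CPM. Gene atp6v0d2.L stood at 102 and 64.1 CPM, and at 63.6 and 97.8 CPM, against 112 and 84.7 CPM. Neurog2 replicate 2 and mutant replicate 1 lay below both controls in each of these isoforms. It was the same library of a construct each time, so the copies are not separate evidence, and none was called. The share of all genes with a library below both controls was not counted. For atp6v1g3.L both mutant libraries were below. Gene ca2.L stood at 320 and 186 CPM, and at 182 and 316 CPM, against 368 and 300 CPM. Gene slc4a1.S stood at 230 and 110 CPM, and at 156 and 208 CPM, against 276 and 196 CPM. Gene slc4a9.L stood at 32.2 and 25.7 CPM, and at 17.8 and 22.8 CPM, against 23.3 and 25.4 CPM. With Neurog2 its libraries were both above the controls, and with the mutant both below. Gene slc4a4.L stood at 0.339 and 0.238 CPM, and at 0.604 and 0.557 CPM, against 0.226 and 0.159 CPM.

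Values of the second copies of these pairs are given for Neurog2 and then mutant caps. Gene ca2.S stood at 318 and 162 CPM, and at 170 and 280 CPM, against 308 and 202 CPM. Gene slc4a1.L stood at 94.8 and 69.3 CPM, and at 65.2 and 118 CPM, against 103 and 99.2 CPM. Gene atp6v1g3.S stood at 57.2 and 29.8 CPM, and at 39.5 and 49 CPM, against 72 and 52.9 CPM. Both libraries lay below both controls for slc4a1.L with Neurog2 and for atp6v1g3.S with the mutant. Copy atp6v1c2.S stood at 8.38 and 3.93 CPM, and at 4.65 and 5.26 CPM, against 8.94 and 7.81 CPM. Copy atp6v0d2.S stood at 0.979 and 2.24 CPM, and at 0.302 and 3.59 CPM, against 1.2 and 2.63 CPM. Copy slc4a4.S stood at 0.753 and 0.809 CPM, and at 0.423 and 0.852 CPM, against 0.413 and 0.557 CPM. None of these was called. The neuronal isoform gene atp6v1g2.L stood at 1.07 and 2.93 CPM, and at 1.42 and 1.36 CPM, against 1.65 and 1.39 CPM. Its S copy atp6v1g2.S stood at 3.88 and 5.21 CPM, and at 4.8 and 6.55 CPM, within or just below the control libraries at 3.96 and 7.01 CPM.

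The copy called with Neurog2 was atp6v0a1.S, at 49.5 and 60.5 CPM against 26.9 and 31.3 CPM (log2 change 0.92 ± 0.22, edgeR adjusted p = 0.0467). In mutant caps it stood at 49.8 and 44.2 CPM, also above both controls (0.69 ± 0.22, edgeR adjusted p = 0.242). The Neurog2 call was lost with DESeq2's size factors, where the split was 0 higher and 1 lower, in a fit of the 25 h libraries alone, and without Neurog2 replicate 2 or either control library. Its partner atp6v0a1.L stood at 174 and 155 CPM with Neurog2 against 282 and 270 CPM in controls and was just short of a call (-0.75 ± 0.19, edgeR adjusted p = 0.0519). With replicate number as a block it was called lower (-0.75, edgeR adjusted p = 0.0326), and with a block within each time atp6v0e2.S was called higher (2.85, edgeR adjusted p = 0.00922). In mutant caps atp6v0a1.L stood at 274 and 211 CPM and was not called. From the ionocyte and transport list, Neurog2 caps had slc4a7.S and atp1b1.L higher by 1.72 and 0.95 on the log2 scale, and mutant caps had none of 37 called. Among all genes, 2.98% were called higher and 0.105% lower with Neurog2, and 0.803% and 0.0329% with the mutant.

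Direct comparisons at 25 h placed Ptf1a below both other constructs. Against the mutant, 21 of 44 copies were lower and 0 higher, where 3.81% of all genes were lower and 4.40% higher. DESeq2 called 1 copy higher there, and 2281 of all genes. Against Neurog2, 21 were lower and 1 higher, where the shares of all genes were 4.19% and 5.13%. Gene atp6v0c.L was 3.32-fold lower than in mutant caps, which stood at 323 and 468 CPM (log2 change -1.73 ± 0.23, edgeR adjusted p = 0.00176). It was 3.48-fold lower than in Neurog2 caps, which stood at 486 and 343 CPM (-1.80 ± 0.23, edgeR adjusted p = 0.00108). Gene atp6v1b1.L was lower by 1.67 ± 0.38 and 1.87 ± 0.38 on the log2 scale, and ca12.L by 1.93 ± 0.40 and 2.14 ± 0.40. Gene slc4a9.L had the lowest change against Neurog2, -2.67 ± 0.49, and atp6v1c2.L the lowest against the mutant, -2.28 ± 0.51. The copy that was higher than in Neurog2 caps was slc4a4.L (3.71 ± 0.99, edgeR adjusted p = 0.0354). That call was lost when any 1 of the 4 libraries compared was left out, and the log2 change was 2.07 with its L and S copies summed. Gene slc4a4.L was not called against the mutant, except with replicate number as a block (2.74, edgeR adjusted p = 0.0226).

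These counts changed when single libraries were left out, while each called copy kept its direction. For atp6v1b1.L against the mutant the log2 change ran from -2.41 to -1.19 over all settings. Shares of all genes in the smaller fits were not counted. Against the mutant, the lower count was 12 without Ptf1a replicate 1, 5 without Ptf1a replicate 2 and 1 without mutant replicate 2. Against Neurog2 it was 7 without Ptf1a replicate 2 and 2 without Neurog2 replicate 1. Gene atp6v0c.L stayed lower in both comparisons without any 1 of the libraries compared, and slc4a9.L did so against Neurog2. With replicate number as a block the lower count was 27 in each comparison, and copies atp6v0d2.L and slc4a1.L were then called lower in both. The block also raised the lower calls over all genes, from 1159 to 2168 against the mutant and from 1273 to 2166 against Neurog2. No copy differed between mutant and Neurog2 caps by edgeR, where 0.00658% of all genes were called higher and 0.00329% lower. An unadjusted p under 0.05 was found for 1 of 44 copies, or 2.27%, against 4.29% of all genes. DESeq2 called 0 copies there, and 30 of all genes higher and 86 lower.

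The specialised isoforms differed between the replicates of a construct at 25 h, mostly in 1 direction. In Ptf1a caps 7 of 8 isoform copies of acid-secreting cells were higher in replicate 1, at a median of 2.52-fold, and the carriers and carbonic anhydrases at a median of 2.33-fold. In Neurog2 caps 7 of 8 were higher in replicate 1, at a median of 1.78-fold. In mutant caps all 8 were higher in replicate 2, at a median of 1.5-fold. In controls the median was 1.19-fold, with 7 of 8 higher in replicate 1. The lean was not limited to these isoforms. Of all 44 copies, 34 were higher in replicate 1 with Ptf1a, 34 with Neurog2 and 32 in controls, and 35 were higher in replicate 2 with the mutant. Of the 30384 genes tested, the matching numbers were 15469, 16186, 15638 and 15311. Median folds over all genes were 1.01, 1.03, 1.01 and 1.

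The neuronal list differed between the same libraries. Its summed level was 763 CPM in Neurog2 replicate 1 and 2870 CPM in replicate 2, and 1154 CPM in mutant replicate 1 and 325 CPM in replicate 2. In both constructs the library with the higher neuronal level had the lower level of most specialised pump isoforms. In Ptf1a caps the neuronal levels, 1060 and 1015 CPM, were close while the pump isoforms differed. A relation between them was not tested.

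**Figure D4:**
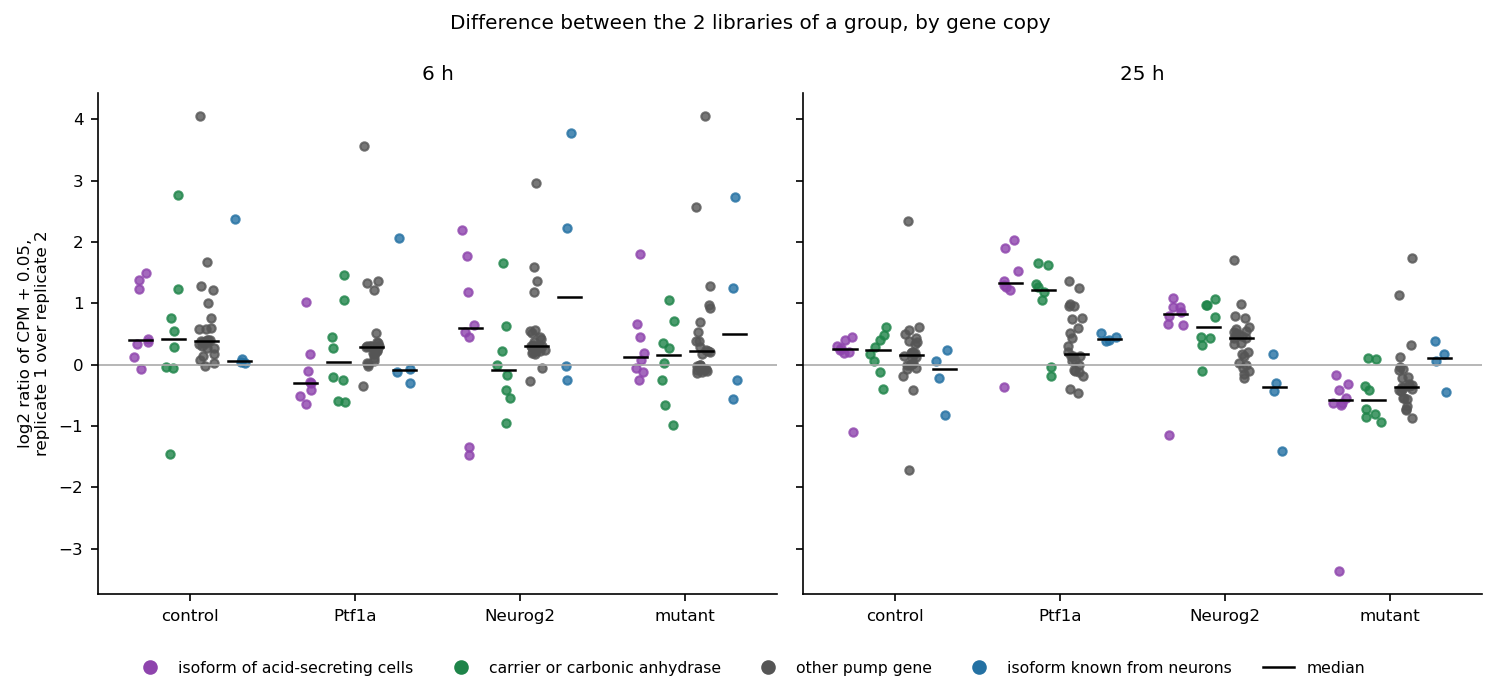
Log2 ratio of replicate 1 to replicate 2 for each copy by class, group and time; 0 means equal levels. At 25 h the isoforms of acid-secreting cells lie mostly above 0 in Ptf1a and Neurog2 caps and all 8 lie below 0 in mutant caps.

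At 6 h none of the constructs changed a member of the set by edgeR. With Ptf1a, 0 of 44 copies were called, against 0.885% of all genes called higher and 0.0165% lower, and 3 copies or 6.82% had an unadjusted p under 0.05, against 7.03% of all genes. With Neurog2, 0 were called against 0.247% of all genes higher and 0.00329% lower, and 2 copies or 4.55% had an unadjusted p under 0.05, against 3.93%. With the mutant, 0 were called against 0.602% higher and 0.00329% lower, and 1 copy or 2.27% had an unadjusted p under 0.05, against 6.52%. DESeq2 called 0, 1 and 0 copies. Of all genes it called 484, 191 and 451 higher and 102, 7 and 12 lower. The smallest edgeR p of the Neurog2 comparison belonged to atp6v1c2.L, at 3.27 and 8.4 CPM against 1.54 and 1.21 CPM (log2 change 2.06 ± 0.54, edgeR adjusted p = 0.369). General subunits were already abundant at this time, atp6v0c.L at 377 and 311 CPM with Ptf1a against 314 and 261 CPM in controls. The specialised isoforms were low, with atp6v1b1.L between 0.42 and 0.956 CPM and atp6v0a4.L between 0.096 and 0.289 CPM over the 8 libraries of 6 h, so that differences in them rest on few reads. Over the same libraries atp6v1g3.L stood between 0.0933 and 0.602 CPM, atp6v0d2.L between 0.432 and 2.62 CPM and ca2.L between 0.15 and 0.717 CPM. Carriers slc4a9.L and slc4a4.L stayed below 1 CPM, while ca12.L was between 15.2 and 25.4 CPM and slc4a1.L between 7.33 and 13.4 CPM. Among isoforms known from neurons, atp6v0a1.L was between 13.5 and 17.6 CPM, atp6v0a1.S between 48.1 and 71.1 CPM and atp6v1g2.S between 0.12 and 3.75 CPM.

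The effect of Ptf1a differed between the times for 18 of the 44 copies, all with a lower value at 25 h, where 5.34% of all genes were called lower in this difference and 4.47% higher. DESeq2 called 1 copy higher, and 2420 of all genes. The 18 copies held 5 of the 8 isoform copies of acid-secreting cells and 11 of the 24 other pump copies. For Neurog2 and the mutant the difference between times was called by edgeR for 0 of 44 copies each, where 0.207% and 0.0724% of all genes were called higher and 0.0889% and 0.122% lower. At an unadjusted p under 0.05 there were 3 and 4 copies, or 6.82% and 9.09%, against 9.08% and 8.09% of all genes. DESeq2 called 0 and 0 copies, and of all genes 611 and 264 higher and 193 and 246 lower.

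The balance of the homeologs shifted with time in several genes. Of the reads of atp6v0a1, the L copy took 20.2% and 19.5% in controls at 6 h and 91.3% and 89.6% at 25 h. The L copy rose by 4.01 ± 0.21 on the log2 scale, from 17.6 and 16.6 CPM to 282 and 270 CPM, while the S copy fell by 1.25 ± 0.22, from 69.7 and 68.5 CPM. In Ptf1a caps at 25 h the L share was 77.5% and 78.1%, in Neurog2 caps 77.9% and 71.9%, and in mutant caps 84.6% and 82.7%, all below both controls. The L share of slc4a1 went the other way in controls, from 89.7% and 92.5% to 27.2% and 33.6%, and stood at 47.6% and 45.6% in Ptf1a caps. For atp6v1h it went from 70.4% and 70.5% to 42.6% and 43%, and for atp6ap1.2 from 32.9% and 19.8% to 58.6% and 61.6%. In atp6v0c and atp6ap2 the L share of the control libraries moved by a few points only, from 53.4% and 55.2% to 49% and 50.1% and from 78% and 80.3% to 82.9% and 85.9%. How reads that fit both copies were counted is not given in the sources used here, so copy levels are less certain than sums over a pair.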

How the data were processed

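The authors deposited raw read counts per gene, 1 table for each of the 16 libraries. Per the submitters' processing notes, CASAVA 1.8, STAR 2.5, featureCounts and DESeq2 1.8 were used. Strandedness and how multi-mapping reads were counted are not given in the sources used here. Per the file headers, the deposited annotation is of genome build 9.1. Its start and end positions (other values) gave coordinates and gene model lengths.

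The count model was edgeR 4.0.16 under R 4.3.3 (TMM, filterByExpr by group, robust glmQLFit over all 16 libraries with a mean for each of 8 groups, 8 residual degrees of freedom, common biological coefficient of variation 0.378). P was adjusted by Benjamini-Hochberg over 30384 genes, and SE is the log2 fold change divided by the root of F. The procedure was tested on simulated data. Replicate ratios used an offset of 0.05 CPM. Totals per library were 31436437 to 228346016. No molecular identifiers were given, so depth speaks for counting error only.

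Differences between same-numbered replicates correlated at 0.617 to 0.697 between groups at 6 h, 0.201 to 0.37 at 25 h and 0.125 to 0.239 across times. By this check the numbers, which come from the titles, pair the samples at 6 h. At 25 h the range overlaps that across times, so pairing there is less certain. The count model itself has no block, and blocked values are given where they change a call that the text describes. Alternatives were DESeq2 1.42.0 size factors, no filter, the DESeq2 Wald test, a replicate block, libraries of 1 time only, summed L and S copies and leaving out each library. A block within each time was added after the data were seen.

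The members and lists were chosen with earlier results of these data known. Values in both libraries of the groups compared are given at 25 h for transport genes, isoforms of acid-secreting cells and neurons, more briefly for the second copy of a pair, and for the called members with the 3 highest and 3 lowest changes. From the ionocyte list, the 2 highest and 2 lowest called at 25 h are given. Further genes were chosen after their values were seen. The other lists were lysosomal, multiciliated, goblet, small secretory and neuronal genes. No sequence is shown.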

Additional observations from a re-analysis of the deposited data

Results flagged for a closer look

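The effect of Ptf1a against control caps was lower at 25 h than at 6 h for 18 copies, by the interaction term of the edgeR model over all genes. Each value is the log2 fold change at 25 h minus that at 6 h, and all 18 had an adjusted p under 0.05. Among isoforms of acid-secreting cells the difference was -4.07 for atp6v1g3.S, -3.75 for atp6v1g3.L, -3.68 for atp6v0d2.L, -2.999 for atp6v1c2.L and -2.69 for atp6v1b1.L. For the carbonic anhydrases it was -3.69 for ca2.L and -2.65 for ca12.L. For the Ac45 genes it was -3.24 for atp6ap1.1.S and -2.49 for atp6ap1.1.L, and for the other accessory gene atp6ap2.L it was -1.14. In the V0 sector it was -2.19 for atp6v0c.L, -1.49 for atp6v0c.S, -1.76 for atp6v0e1.S, -1.57 for atp6v0e1.L, -1.65 for atp6v0b.S and -1.02 for atp6v0b.L. In the V1 sector it was -1.94 for atp6v1e1.L and -1.31 for atp6v1h.S. The specialised isoforms and ca2 had few reads at 6 h, so their differences carry SEs of 0.59 to 0.92. The count was 9 without Ptf1a replicate 1 of 6 h, 4 without control replicate 2 of 6 h and 8 without control replicate 1 of 25 h.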

How the results depend on the processing

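Groups of 2 limit every call. The Ptf1a comparison with control at 25 h gave 27 lower and 1 higher copies, and 16 lower with L and S copies summed, which leaves fewer genes. Summing also gave 19 higher and 1 lower for control time, from 30 and 2. The replicate block gave 2 higher copies for Ptf1a at 25 h, 1 higher for Ptf1a against the mutant, 1 lower for Neurog2 and 1 higher in the difference of the Ptf1a effect between times. The block within each time gave 3, 1 and 1 in the first 3 of these, 2 higher copies for Neurog2 at 25 h, and 2 higher and 28 lower in that difference. The block changed no other count by over 1.5 times. Calls over all genes rose as well. For Ptf1a at 25 h, 3609 higher and 2619 lower became 4665 and 3620 with the replicate block. The block within each time gave 5875 and 4994. In the difference of the Ptf1a effect between times, 1358 and 1623 became 2046 and 2643, and then 3048 and 4184. With Neurog2 at 25 h, 905 and 32 became 1196 and 131, and then 1716 and 441. For Neurog2 at 25 h, DESeq2 size factors gave 0 higher and 1 lower, the same-time fit and summed copies 0 higher each, and DESeq2's Wald test 1 lower. That test also gave 1 higher copy for Neurog2 at 6 h, for Ptf1a against the mutant and in the difference between times. The same-time fit and summed copies gave 1 higher each for Ptf1a against the mutant, and summing 1 higher in the difference.

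Leaving out single libraries gave 17 to 26 lower and 0 to 2 higher copies for Ptf1a at 25 h, 0 to 1 higher for Neurog2 at 25 h and 0 to 1 for the mutant at 6 h. It gave 25 to 29 higher for control time, 1 to 19 lower against the mutant, 2 to 20 lower and 0 to 0 higher against Neurog2, and 4 to 15 lower and 0 to 1 higher in the difference between times. A left-out library leaves its group with 1, assumed to vary like the other groups.

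For single copies, 704 of the values under other settings kept direction and side of the threshold, 21 lost the call, 10 gained it and 3 reversed. With libraries left out the numbers were 297, 140, 1 and 2. Reversed were atp6v1g2.S with Ptf1a at 25 h, not called (-0.00066 without Ptf1a replicate 1, and between -0.052 and 0.76 over all left-out libraries), and atp6v0a1.S once summed with its L copy (-0.57 with Ptf1a, -0.47 with Neurog2, 1.83 for control time). For Ptf1a at 6 h the median over all genes went from 0.15 to 0.0019 with the size factors of DESeq2. The causes of these changes were not tested.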

Other observations

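At 6 h, 3 of the 44 copies were over 2-fold higher in replicate 1 than in replicate 2 in all 4 groups, which is 6.82%, against 3.01% of all genes tested. They were atp6v0e2.S, atp6v1e1.S and atp6v1g2.S. Gene atp6v0e2.S stood at 1.9 and 0.114 CPM in Ptf1a caps, 1.83 and 0.192 CPM in Neurog2 caps, 1.81 and 0.0621 CPM in mutant caps and 1.56 and 0.0466 CPM in controls. Gene atp6v1e1.S stood at 34.3 and 13.6 CPM, 33.5 and 11.1 CPM, 28.4 and 11.7 CPM, and 32.9 and 10.3 CPM in the same order. No member was over 2-fold higher in replicate 2 in all 4 groups, where 698 of the 30384 genes tested were.

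The genes of carbonic anhydrase 2 and subunit d2 lie near each other in both subgenomes of build 9.1. The gap is 159 kb between ca2.L and atp6v0d2.L on chromosome 6L and 134 kb between ca2.S and atp6v0d2.S on chromosome 6S. At 25 h in controls, ca2.L and ca2.S stood at 368 and 300 CPM and at 308 and 202 CPM. Gene atp6v0d2.L stood at 112 and 84.7 CPM, whereas atp6v0d2.S stood at 1.2 and 2.63 CPM.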
